A study of Mus musculus with 15 samples.

Results

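Microglia, the resident macrophages of the brain, were sorted by flow cytometry from 18-month-old untreated mice into cells of high autofluorescence (AF-high, 5 libraries) and low autofluorescence (AF-low, 3 libraries). These 8 of the series' 15 RNA-seq libraries were chosen by their labels, which give both gates the same age, tissue and lack of treatment and differ only in the autofluorescence. Of the other libraries, 3 came from untreated 3-month-old mice (young) and 4 from 18-month-old mice given PLX5622, which blocks the CSF1 receptor that microglia need to survive; their levels are given beside some genes for scale and were not tested. The sources used here do not give strain, sex, sort markers, the position of the gates or the number of animals behind a library. Libraries are titled as biological replicates, and whether each came from its own animal is not stated, so the p-values below measure the spread between libraries.

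The glow of old microglia under the cytometer is usually attributed to lipofuscin, oxidised protein and lipid that lysosomes could not digest. Lysosomal digestion depends on acid hydrolases such as the cathepsins, on the vacuolar ATPase, the proton pump that acidifies the organelle, and on membrane proteins that let products out. Loss of several of these proteins causes the neuronal ceroid lipofuscinoses, inherited diseases in which similar autofluorescent material accumulates. The comparison asks which transcripts, lysosomal or other, go with autofluorescence at a single age.

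The values are TPM, which count a gene's transcripts per length and relative to all others of the library. Library totals lay between 956489 and 963145 TPM, and the read depth is unknown. Microglial genes were abundant in both gates: the receptor P2ry12 was at 1298, 2201, 3141, 2036 and 2073 TPM in AF-high and at 1183, 1724 and 1889 TPM in AF-low. Autofluorescence itself has no marker transcript, so the gate labels could not be checked in the RNA. Several libraries stood apart. Mitochondrially encoded transcripts took 5.15% and 7.37% of the TPM scale in AF-high 2 and 3, a share that was 2.28% to 2.59% in AF-high 1, 4 and 5 and 2.16% to 2.52% in AF-low. AF-high 2 and AF-low 1 also lay at opposite ends of the first principal component of the 8 libraries.

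The gates differed no more than the libraries within them. AF-high and AF-low libraries correlated across genes as closely with each other (median r = 0.943 over 15 pairs) as AF-high libraries did among themselves (0.936 over 10 pairs) and AF-low libraries among themselves (0.940 over 3 pairs). AF-high 3, for example, was closest to AF-low 2. The difference between gate means held 12.7% of the sum of squares of log2(TPM + 1) among the 8 libraries, where an equal share for each of the 7 degrees of freedom would be 14.3%.

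No gene passed the test between AF-high and AF-low. limma, fitted to log2(TPM + 1) of the 8 libraries, called 0 of 12823 genes at an adjusted p under 0.05 (0.0% in either direction; smallest adjusted p = 0.999). At an unadjusted p under 0.05 there were 195 genes higher in AF-high (1.52%) and 258 lower (2.01%), 453 in all (3.53%) fewer than the 641 that uniform p-values would give. Under quantile normalization that split was 246 higher and 204 lower. The gates did not overlap for 130 genes higher in AF-high (1.01%) and 217 lower (1.69%), or 2.71% in all. The median difference over all genes was -0.05 (log2, AF-high minus AF-low), and 43.8% of genes lay above 0. The 95% interval of the difference lay within 1 log2 unit of 0, a 2-fold change either way, for 7881 genes (61.5%), and for 85.6% of the 3146 genes averaging over 50 TPM. For the other genes the interval reached past a 2-fold difference on at least 1 side. Genes at 0 TPM in any library were missing from the deposited values, so a gene silent in 1 gate could not be tested.

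No lysosomal protease passed the test between gates. Ctsd, which encodes the aspartic protease cathepsin D, was at 2836, 3357, 2739, 3072 and 2853 TPM in AF-high and at 1938, 2950 and 2186 TPM in AF-low. AF-low 2 lay inside the AF-high range while AF-low 1 and 3 lay below it. The log2 difference was 0.35 (95% interval -0.05 to 0.75, limma, unadjusted p = 0.0783, adjusted p = 0.999), and Ctsd averaged 2687 TPM in young libraries. Ctsb, a cysteine protease, averaged 548 ± 88.4 TPM in AF-high and 486 ± 52.0 TPM in AF-low (SD, n = 5 and 3). For Ctss, the cathepsin that trims the MHC class II invariant chain, the averages were 5214 ± 1021 TPM in AF-high and 4728 ± 1044 TPM in AF-low. Ctsl had a log2 difference of 0.02 (-0.56 to 0.61) and Lgmn, the asparaginyl protease legumain, 0.18 (-0.14 to 0.49). Of 14 proteases tested, 11 had differences above 0 and 13 had an interval within 1 log2 unit of 0. The median was 0.06, between 0.02 without AF-high 5 and 0.15 without AF-low 3 when 1 library was left out, and 0.23 without both AF-high 2 and AF-high 3. Ctso, chosen after its values were seen, was the protease with the largest difference and the smallest p, at 44.9, 28.5, 45.2, 42.9 and 44.4 TPM in AF-high and 24.6, 29.6 and 32.5 TPM in AF-low (log2 0.49, 0.01 to 0.96, limma unadjusted p = 0.0477), and AF-high 2 overlapped AF-low.

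The hydrolases of lipids and sugars lay slightly to the AF-high side, with 22 of 29 differences above 0 and a median of 0.15 that ran from 0.10 to 0.21 over 22 alternative settings. Lipa, lysosomal acid lipase, was at 37.6, 78.2, 55.6, 33.3 and 46.9 TPM in AF-high and at 32.4, 42.9 and 35.1 TPM in AF-low. The gates overlapped, with AF-high 2 the highest (log2 0.39, -0.23 to 1.00, limma unadjusted p = 0.193, adjusted p = 0.999). None of these 29 genes separated the gates, and none reached an unadjusted p under 0.05.

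Membrane proteins of the lysosome were split, 16 of 27 lying above 0 with a median of 0.08 (0.01 to 0.11 over the alternative settings). Cd68, the phagolysosomal glycoprotein often stained to mark active microglia, was at 1206, 1795, 1019, 1041 and 1374 TPM in AF-high and at 1134, 990 and 1250 TPM in AF-low. The gates overlapped widely (log2 0.17, -0.30 to 0.63), and both lay above the means of young (899 TPM) and PLX5622 libraries (932 TPM). Lamp1 differed by 0.20 (-0.18 to 0.58) and Lamp2 by 0.02 (-0.35 to 0.40). The cholesterol exporter Npc1 averaged 76.2 ± 16.7 TPM in AF-high and 68.4 ± 7.58 TPM in AF-low.

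Vacuolar ATPase subunits had 12 of 17 differences below 0 and a median of -0.08, close to the -0.05 of all genes, and the list median ran from -0.17 to -0.10 with 1 library left out (lowest without AF-low 2). Atp6v0d1, a subunit of the membrane sector, was at 102, 139, 73.9, 103 and 106 TPM in AF-high and at 146, 153 and 144 TPM in AF-low. The gates did not overlap, although AF-high 2 came within a few TPM of AF-low 3 (log2 -0.52, -0.97 to -0.08, limma unadjusted p = 0.0261, adjusted p = 0.999). The other 16 subunits tested overlapped, and over all genes the gates did not overlap for 1.69% with AF-high lower. Atp6v1b2 varied within each gate, at 140, 60.0, 83.3, 72.3 and 130 TPM in AF-high and 136, 75.7 and 150 TPM in AF-low.

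**Figure D1:**
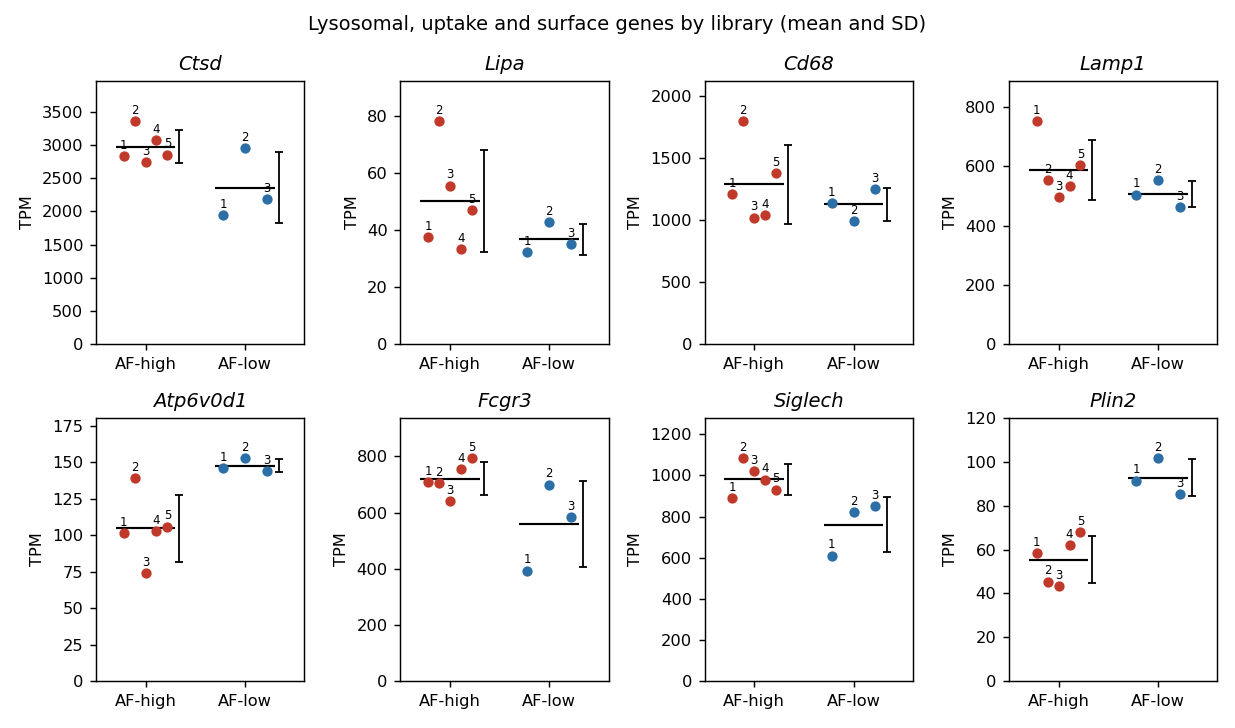
TPM of 8 genes in each library, AF-high (red, 5 libraries) and AF-low (blue, 3 libraries); numbers are the replicate labels, bars the means and whiskers the SD. Ctsd, Lipa, Cd68, Lamp1 and Fcgr3 overlap between gates, while all AF-low libraries lie above all AF-high libraries for Atp6v0d1 and Plin2 and below them for Siglech.

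Many lysosomal genes carry in their promoters the CLEAR element, the binding site of TFEB, a transcription factor that raises lysosome production. The promoter windows of 3 genes are shown because they hold the same letters while the genes lay on different sides of 0 between gates; they were chosen after the values were seen. Each window is 300 bases (250 before and 50 after the start, RefSeq, GRCm38.p6, 5′ to 3′ on the gene's strand), with matches to GTCACGTG or its reverse complement CACGTGAC in capitals. Ctsd is at chr7:142387778-142388077 (minus strand), Lamp1 at chr8:13158911-13159210 (plus strand) and Atp6v0d1 at chr8:105566015-105566314 (minus strand).
Ctsd: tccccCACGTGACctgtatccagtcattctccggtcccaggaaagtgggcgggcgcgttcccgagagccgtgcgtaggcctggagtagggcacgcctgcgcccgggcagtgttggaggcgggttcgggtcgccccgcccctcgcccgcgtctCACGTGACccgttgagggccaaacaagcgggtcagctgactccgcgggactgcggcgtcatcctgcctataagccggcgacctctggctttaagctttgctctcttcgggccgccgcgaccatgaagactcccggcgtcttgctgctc
Lamp1: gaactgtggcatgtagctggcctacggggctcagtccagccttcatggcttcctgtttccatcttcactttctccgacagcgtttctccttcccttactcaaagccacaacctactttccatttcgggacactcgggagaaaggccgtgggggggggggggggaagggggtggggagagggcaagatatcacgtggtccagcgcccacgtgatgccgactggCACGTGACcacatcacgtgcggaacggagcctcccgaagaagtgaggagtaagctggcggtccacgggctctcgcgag
Atp6v0d1: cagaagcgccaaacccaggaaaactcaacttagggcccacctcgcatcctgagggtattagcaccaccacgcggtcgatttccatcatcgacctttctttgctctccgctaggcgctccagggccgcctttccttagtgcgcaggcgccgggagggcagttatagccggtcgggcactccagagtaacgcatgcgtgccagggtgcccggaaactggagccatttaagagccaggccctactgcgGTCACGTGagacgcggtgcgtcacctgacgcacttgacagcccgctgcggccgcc
Of 125 tested lysosome and autophagy genes with a window, 21 (16.8%) held this motif, which includes the E-box core CACGTG, against 4.77% of the 9509 tested genes with a window and 2.25% of all 32851 windows. The 21 genes had a median log2 difference of -0.03 (10 above 0), and the 104 without the motif 0.02 (57 above 0). Ctsd stood at 0.35, Lamp1 at 0.20 and Atp6v0d1 at -0.52. A match to these letters is not a measured binding site. Tfeb itself ranged from 9.87 to 43.0 TPM in AF-high and from 18.9 to 22.4 TPM in AF-low. Its relatives Tfe3 and Mitf differed by -0.06 (-0.54 to 0.42) and -0.16 (-0.65 to 0.33).

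Genes of the neuronal ceroid lipofuscinoses were evenly divided, 6 of 11 above 0 with a median of 0.01. Ppt1, a depalmitoylating enzyme, averaged 147 ± 21.3 TPM in AF-high and 128 ± 8.39 TPM in AF-low, and Grn, which encodes progranulin, 483 ± 101 TPM in AF-high and 452 ± 75.4 TPM in AF-low. The list median was -0.02 without AF-high 2, -0.03 without AF-high 5 and -0.10 without AF-low 2. Autophagy genes had a median of -0.03 (17 of 39 above 0), which was 0.00 without AF-high 2 or AF-high 3. The gates did not overlap for 2 of the 39, Map1lc3a and Snap29, both higher in AF-high and both picked out after their values were seen, where 1.01% of all genes did so. Sqstm1, the cargo receptor p62, differed by -0.12 (-0.65 to 0.41) and Becn1 by 0.01 (-0.39 to 0.41). limma (two-sided) gave Snap29, a SNARE of autophagosome fusion, an unadjusted p of 0.0240, with 16.8 to 23.5 TPM in AF-high and 10.5 to 15.2 TPM in AF-low (adjusted p = 0.999).

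Uptake receptors gave no common direction (15 of 28 above 0, median 0.04). Fcgr3, an activating IgG receptor, was at 708, 705, 642, 755 and 795 TPM in AF-high and at 393, 700 and 585 TPM in AF-low, with AF-low 2 inside the AF-high range (log2 0.40, -0.03 to 0.84). Cd36, a scavenger receptor for oxidised lipid, was low in both gates, at 0.748 to 3.59 TPM in AF-high and 4.07 to 7.37 TPM in AF-low. These did not overlap (log2 -0.84, -1.68 to -0.01, limma unadjusted p = 0.0474, adjusted p = 0.999). Trem2, a lipid-sensing receptor, differed by 0.32 (-0.27 to 0.92) and Mertk, a receptor for dying cells, by -0.03 (-0.37 to 0.31).

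Among lipid storage genes Plin2, which coats lipid droplets, separated the gates, and it was named for that and for its small p. It was at 58.3, 45.5, 43.3, 62.2 and 68.0 TPM in AF-high and at 91.6, 102 and 85.4 TPM in AF-low (log2 -0.75, -1.19 to -0.31, limma unadjusted p = 0.00337, adjusted p = 0.999). Every AF-high library was below every AF-low library, as was the case for 1.69% of all genes. The AF-high mean of 55.5 TPM lay near the 62.1 TPM of young and 61.0 TPM of PLX5622 libraries. Apoe, the main lipid carrier of the brain, averaged 539 ± 282 TPM in AF-high and 538 ± 165 TPM in AF-low. Of the 15 genes in this list 10 were below 0, with a median of -0.13, but the median was 0.01 without AF-high 3 and 0.03 without AF-low 3. Iron genes had a median of -0.06, and 0.06 without AF-high 3. Ftl1, ferritin light chain, ranged from 1843 to 5328 TPM within AF-high and from 3559 to 4643 TPM in AF-low.

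Oxidative stress genes had no common direction. Cybb, the catalytic subunit of the phagocyte NADPH oxidase, averaged 14.7 ± 4.32 TPM in AF-high and 24.2 ± 6.28 TPM in AF-low, with AF-high 2 at 21.2 TPM above AF-low 2 at 17.6 TPM (log2 -0.70, -1.34 to -0.05). Its partners Cyba and Ncf1 differed by 0.04 and 0.06. The 28 antioxidant genes tested were split 14 and 14 about 0. The gates did not overlap for 1 of them, the stress sensor Sesn2, where 1.69% of all genes did so with AF-high lower. Sesn2, picked out after its values were seen, was at 1.44 to 4.04 TPM in AF-high and 5.23 to 6.28 TPM in AF-low. Nfe2l2, which encodes Nrf2, the regulator of the antioxidant genes, averaged 382 ± 73.3 TPM in AF-high and 385 ± 29.2 TPM in AF-low. Hmox1, heme oxygenase, averaged 124 ± 39.4 TPM in AF-high and 150 ± 24.1 TPM in AF-low.

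Homeostatic microglial genes lay mostly to the AF-high side: 25 of 32 were above 0, the median being 0.21 against -0.05 for all genes. The gates did not overlap for 3 of them, all higher in AF-high, where 1.01% of all genes did so. Siglech, a lectin of microglia, was at 891, 1086, 1020, 980 and 932 TPM in AF-high and at 610, 822 and 852 TPM in AF-low (log2 0.38, 0.02 to 0.74, limma unadjusted p = 0.0423, adjusted p = 0.999). The other 2, named after their values were seen, were Adgrg1, an adhesion receptor, at 215 to 595 TPM in AF-high and 153 to 205 TPM in AF-low, and Fcrls at 741 to 847 TPM in AF-high and 509 to 733 TPM in AF-low. P2ry12 differed by 0.40 (-0.21 to 1.01), Csf1r by 0.29 (-0.12 to 0.70) and the lineage factor Sall1 by 0.08 (-0.38 to 0.53). For P2ry12, dropping AF-high 3 gave 0.25, dropping AF-low 1 gave 0.20, and dropping AF-high 2, AF-high 3 and AF-low 1 together gave -0.03. The list median stayed above 0 under all 22 alternative settings but was 0.04 in a fit that dropped AF-high 2, AF-high 3 and AF-low 1 together. Disease-associated microglial genes, which lipid-laden and plaque-associated microglia express, had a median of 0.06 (18 of 29 above 0), which was -0.05 without AF-high 1, -0.01 without AF-high 4 and -0.02 without AF-low 1. Clec7a, a glucan receptor, averaged 18.0 ± 10.6 TPM in AF-high and 31.7 ± 10.9 TPM in AF-low, and Cst7, a cathepsin inhibitor, 23.6 ± 10.7 TPM in AF-high and 17.5 ± 7.60 TPM in AF-low. Spp1, osteopontin, averaged 13.9 ± 8.63 TPM in AF-high and 12.2 ± 6.47 TPM in AF-low, while young libraries averaged 1.56 TPM and PLX5622 libraries 18.6 TPM.

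**Figure D2:**
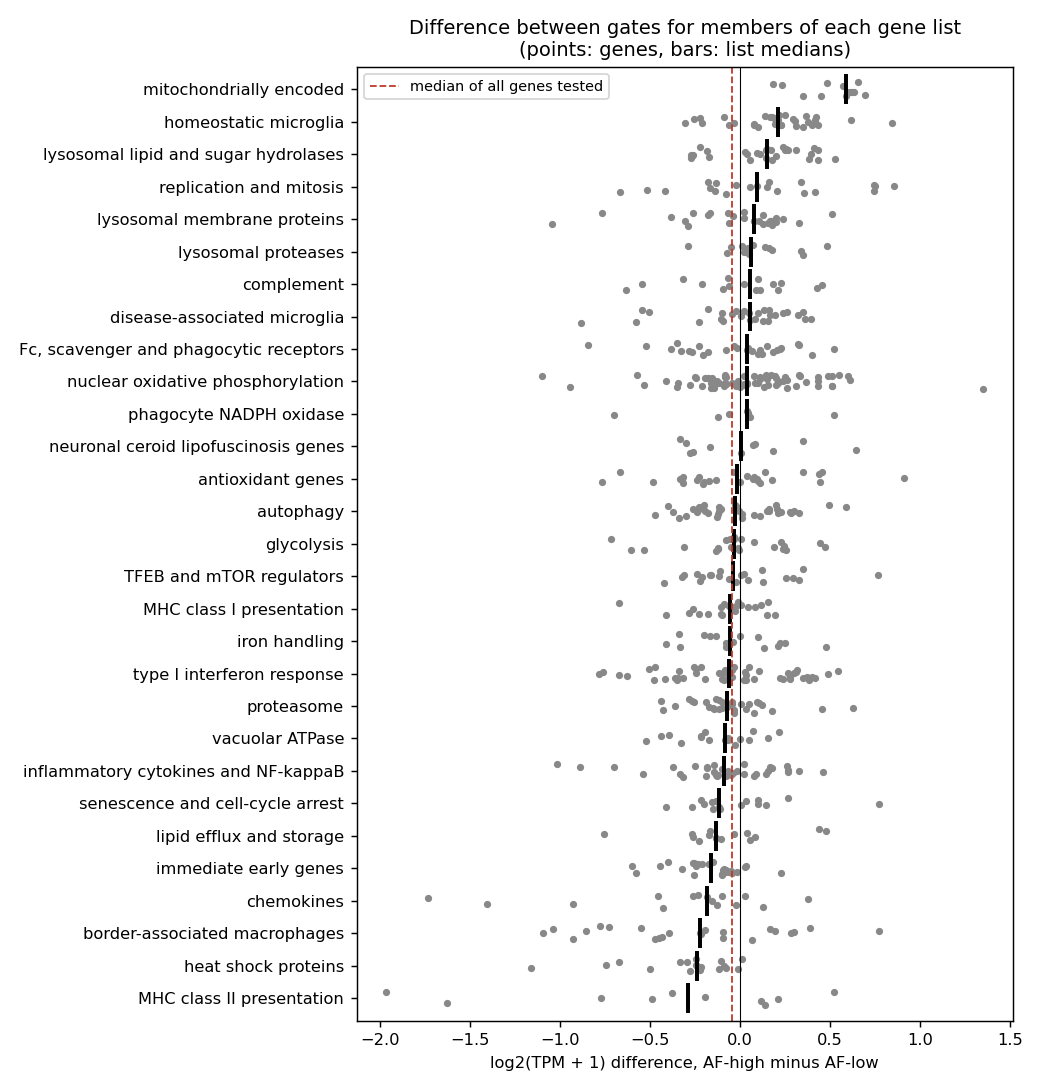
Difference in log2(TPM + 1), AF-high minus AF-low, of every tested member of 29 gene lists (grey points), with list medians (black bars), 0 (solid line) and the median of all genes, -0.05 (red dashed line). Most medians lie close to that of all genes; mitochondrially encoded genes have the highest median (0.59) and MHC class II genes the lowest (-0.29).

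MHC class II presentation had the lowest median of the lists plotted, -0.29, with 6 of 10 genes below 0. Cd74 (chromosome 18, 60803848 to 60812652, GRCm38), the invariant chain that escorts class II molecules to the endosome, had the smallest p of all genes. It was at 81.6, 90.7, 78.6, 70.1 and 74.7 TPM in AF-high and at 151, 123 and 134 TPM in AF-low, a wide gap beside the scatter within gates (log2 -0.77, -1.13 to -0.42, limma unadjusted p = 0.000623, adjusted p = 0.999). Young libraries averaged 72.7 TPM and PLX5622 libraries 53.0 TPM, so that of the 4 groups AF-low had the highest mean. The class II alpha chain gene H2-Aa was at 24.3, 174, 38.1, 12.6 and 1.26 TPM in AF-high and at 88.2, 73.2 and 96.0 TPM in AF-low. The AF-high libraries thus spanned both sides of AF-low, and AF-high 2 alone exceeded it (log2 -1.96, -4.34 to 0.41). The beta chain gene H2-Ab1 was at 2.88, 23.4, 6.25, 7.28 and 3.33 TPM in AF-high and at 45.2, 9.91 and 24.2 TPM in AF-low (log2 -1.63, -3.02 to -0.23, unadjusted p = 0.0266). Other members, such as H2-DMb1 at 0.52, lay above 0. The list median ran from -0.43 to -0.19 over the 22 alternative settings. MHC class I genes had a median of -0.05 (0.00 without AF-low 2). Of the 22 tested, only the peptide transporter Tap2 had gates that did not overlap, where 1.69% of all genes did so with AF-high lower. Picked out after its values were seen, Tap2 was at 5.75 to 13.1 TPM in AF-high and 13.5 to 14.5 TPM in AF-low. B2m, the class I light chain, differed by 0.09 (-0.29 to 0.46).

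Markers of border-associated macrophages, which live along vessels and meninges and can enter a brain macrophage sort, were lower in AF-high for 16 of 23 genes (median -0.22). The gates did not overlap for 5 of the 23 with AF-high lower and for 1, Ms4a6d, with AF-high higher, where 1.69% and 1.01% of all genes did so. Mrc1, the mannose receptor, was at 23.1, 22.9, 23.1, 21.4 and 25.8 TPM in AF-high and at 28.9, 31.7 and 36.0 TPM in AF-low (log2 -0.45, -0.86 to -0.04). Cd163, the haemoglobin scavenger receptor, was at 2.41, 3.97, 2.82, 4.26 and 3.85 TPM in AF-high and at 7.19, 6.11 and 6.35 TPM in AF-low (-0.77, -1.34 to -0.21). Cbr2, a carbonyl reductase, was at 5.14 to 9.40 TPM in AF-high and 12.2 to 23.3 TPM in AF-low, and F13a1, a coagulation factor subunit, at 5.29 to 8.06 TPM in AF-high and 8.26 to 17.2 TPM in AF-low. Igfbp4, named after its values were seen, was the fifth, at 7.52 to 11.1 TPM in AF-high and 11.7 to 14.8 TPM in AF-low. Cbr2 too was picked by its values, for a small p among genes whose gates did not overlap. Lyve1 went the other way, at 1.62 to 11.6 TPM in AF-high and 3.00 to 4.57 TPM in AF-low. None of the 23 passed over all genes (limma, smallest adjusted p = 0.999). The summed level of the list, which includes genes that microglia share such as Lyz2, was 987 to 1342 TPM in AF-high and 1165 to 1230 TPM in AF-low. In bulk RNA, fewer cells of a type and less RNA per cell cannot be told apart. The part of such macrophages in the Cd74 and H2-Aa levels was not tested. Over the 22 alternative settings the list median ran from -0.46 to -0.07.

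**Figure D3:**
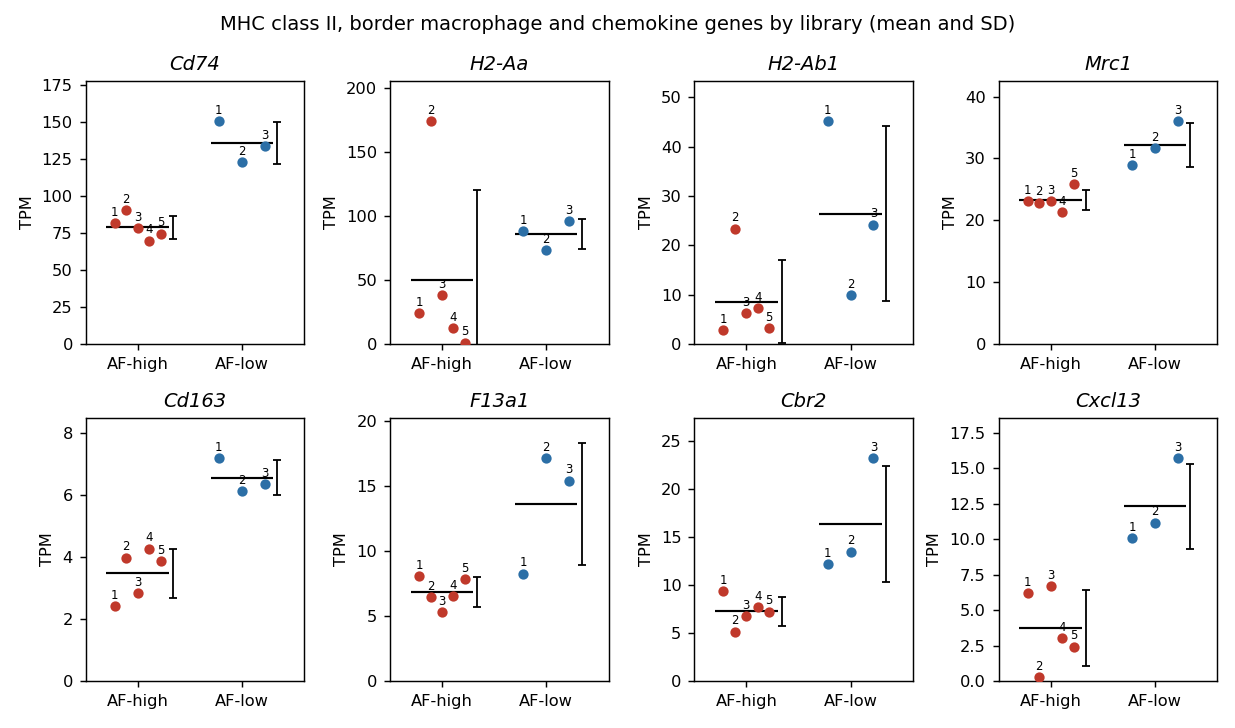
TPM of MHC class II genes (Cd74, H2-Aa, H2-Ab1), border-associated macrophage markers (Mrc1, Cd163, F13a1, Cbr2) and the chemokine Cxcl13 in each library, AF-high in red and AF-low in blue, with means and SD. The gates do not overlap except for H2-Aa and H2-Ab1, where AF-high 2 reaches 174 and 23.4 TPM.

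Many markers of other cells could not be compared, because the deposited values left them out or they fell under the filter used here. Cd3e and Cd79a of lymphocytes, Ly6c2 of monocytes, S100a8 and S100a9 of neutrophils, Cldn5 of endothelium, Gfap of astrocytes and Mog of oligodendrocytes were not among the genes tested. The B-cell gene Cd79b was at 2.17 to 9.34 TPM in AF-high and 5.22 to 8.71 TPM in AF-low. The monocyte receptor Ccr2 was at 3.44 to 6.37 TPM in AF-high and 5.63 to 7.67 TPM in AF-low, and 3 of 16 monocyte markers were tested, all 3 below 0. The summed level of the tested markers was 40.0 to 57.6 TPM in AF-high and 46.3 to 86.5 TPM in AF-low for monocytes. It was 233 to 367 TPM in AF-high and 262 to 341 TPM in AF-low for 9 of 25 lymphocyte markers. For 9 of 16 astrocyte markers the sum was 97.0 to 153 TPM in AF-high and 92.5 to 103 TPM in AF-low, and for 8 of 15 oligodendrocyte markers 942 to 1436 TPM in AF-high and 655 to 1020 TPM in AF-low, the highest value of both being that of AF-high 2. For 7 of 16 endothelial markers the sum was 209 to 325 TPM in AF-high and 199 to 259 TPM in AF-low, and for 4 of 16 neutrophil markers 220 to 374 TPM in AF-high and 236 to 338 TPM in AF-low. Of 8 erythroid markers 1 was tested, at 0.2742 to 3.775 TPM in AF-high and 3.853 to 11.85 TPM in AF-low (log2 -1.25). Its gates did not overlap, where 1.69% of all genes did so with AF-high lower. Choroid plexus and ependymal markers (5 of 14) varied widely, at 34.6 to 375 TPM in AF-high and 60.5 to 322 TPM in AF-low, mostly the thyroid hormone carrier Ttr. They summed to 8788, 5797 and 216 TPM in young libraries. Such a sum follows its most abundant markers and is not a measure of the amount of another cell type. The part of these other cell types in the results was not tested.

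Inflammatory genes mostly overlapped between gates. Of 36 cytokine and NF-kappaB genes 13 were above 0, with a median of -0.09, and of 52 interferon response genes 22 (median -0.06); without AF-low 3 these medians were 0.03 and 0.06, and the interferon median was 0.01 without AF-high 3. The gates did not overlap for 1 of the 36, the cytokine Il15 (25.4 to 48.7 TPM in AF-high and 49.9 to 57.0 TPM in AF-low), and for 3 of the 52, Ifi27 higher and Ifi204 and Slfn5 lower in AF-high, all 4 picked out after their values were seen. Over all genes the share without overlap was 1.01% higher and 1.69% lower, 2.71% in all, so 1 of 36 is close to the background. Tnf differed by -0.04 (-0.71 to 0.63) and Il1a by 0.08 (-0.35 to 0.50). The complement genes C1qa, C1qb and C1qc differed by 0.21, 0.11 and 0.09. Among 15 chemokines 12 were below 0 (median -0.18). That median ran from -0.39 without AF-high 1 to -0.05 without AF-high 2, and was 0.02 without AF-high 2, AF-high 3 and AF-low 1 together. Only 1 of the 15 had gates that did not overlap. This was Cxcl13 (chromosome 5, 95956951 to 95961068), which attracts B cells, at 6.20, 0.252, 6.71, 3.03 and 2.43 TPM in AF-high and 10.1, 11.2 and 15.7 TPM in AF-low (log2 -1.73, -2.94 to -0.52, limma unadjusted p = 0.00954, adjusted p = 0.999). Young libraries had 0.516 ± 0.557 TPM of it (SD, n = 3) and PLX5622 libraries 21.1 ± 5.34 TPM (SD, n = 4), the highest mean of the 4 groups. The DNA sensor gene Ifi204 was at 34.6 to 37.5 TPM in AF-high and 41.9 to 48.6 TPM in AF-low, but it may share reads with its near-identical neighbours.

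Immediate early genes, which cells switch on within minutes of a stimulus such as tissue handling, lay below 0 in 25 of 28 cases (median -0.16). Fos and Egr1 were close to level: Fos averaged 759 ± 305 TPM in AF-high and 777 ± 399 TPM in AF-low, and Egr1 4458 ± 1361 TPM in AF-high and 4562 ± 389 TPM in AF-low. Heat shock genes were below 0 for 17 of 18 (median -0.24). Hspa1l, a Hsp70 relative, was at 2.90, 2.43, 1.93, 2.64 and 3.40 TPM in AF-high and 6.93, 6.72 and 7.72 TPM in AF-low, without overlap (log2 -1.16, -1.70 to -0.62, limma unadjusted p = 0.000696, adjusted p = 0.999). Hspa1l was picked for its small p among genes whose gates did not overlap. The inducible chaperone Hspa1a averaged 80.8 ± 17.5 TPM in AF-high and 134 ± 59.2 TPM in AF-low, where AF-low 2 alone had 202 TPM. Both list medians stayed below 0 under all 22 alternative settings.

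All 13 mitochondrially encoded genes were above 0 (median 0.59), and the level of AF-high 2 and AF-high 3 set that median. mt-Co1, part of respiratory complex IV, was at 6882, 13980, 17680, 8267 and 9803 TPM in AF-high and at 6990, 7222 and 7017 TPM in AF-low. AF-high 2 and 3 were the highest for it. With them left out, an alternative added after the values were seen, the list median was 0.00. Nuclear genes of oxidative phosphorylation had a median of 0.04 (40 of 73 above 0), and -0.01 when AF-high 1 or AF-low 1 was dropped. Members lay far from 0 on both sides, and the gates did not overlap for 1 in each direction, Ndufs5 and Ndufv3, where 1.01% of all genes did so with AF-high higher and 1.69% with AF-high lower. Ndufs5, a subunit of complex I, was at 36.4, 48.6, 23.8, 27.9 and 22.4 TPM in AF-high and 7.58, 21.0 and 9.05 TPM in AF-low (log2 1.35, 0.54 to 2.15, limma unadjusted p = 0.00385, adjusted p = 0.999). Young libraries averaged 32.4 TPM and PLX5622 libraries 24.3 TPM. Ndufs5 was picked for its small p among genes whose gates did not overlap. On the other side, also chosen after their values were seen, Ndufv3 was at 2.73 to 6.17 TPM in AF-high and 7.63 to 8.72 TPM in AF-low (log2 -0.57), and Ndufa8, also of complex I, at 2.80 to 10.6 TPM in AF-high and 6.77 to 26.2 TPM in AF-low (-1.10, -2.25 to 0.06). Atp5a1, the alpha subunit of ATP synthase, averaged 204 ± 60.4 TPM in AF-high and 158 ± 22.6 TPM in AF-low.

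The genes nearest to the threshold were of mixed function. They were picked by their p, so their separation describes the extremes of 12823 genes and is no evidence of a change. On the lower side, beside Cd74, Hspa1l, Plin2 and Cbr2, stood Diaph1 (chromosome 18, 37843601 to 37935476), a formin that builds actin filaments. It was at 30.4, 15.4, 18.4, 20.1 and 25.5 TPM in AF-high and at 43.8, 47.6 and 46.2 TPM in AF-low, while young and PLX5622 libraries averaged 15.9 and 19.2 TPM (log2 -1.07, -1.60 to -0.53, limma unadjusted p = 0.00122, adjusted p = 0.999). Cd300lf, an inhibitory lipid receptor of myeloid cells, averaged 2.64 ± 1.16 TPM in AF-high and 10.4 ± 4.65 TPM in AF-low. Fgd3 and Fgd6 encode exchange factors for Cdc42. Fgd3 was at 56.1 to 94.3 TPM in AF-high and 108 to 119 TPM in AF-low, and Fgd6 at 0.106 to 5.07 TPM in AF-high and 6.04 to 23.3 TPM in AF-low. Also on this side were Polr1e, a subunit of RNA polymerase I, Mdc1, a DNA damage mediator, Mrps9, a mitochondrial ribosomal protein, and Tmem120b.

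On the higher side Pvrig, an inhibitory receptor, was at 7.29, 9.02, 3.21, 7.75 and 6.76 TPM in AF-high and at 0.576, 2.74 and 2.29 TPM in AF-low (log2 1.48, 0.63 to 2.33, adjusted p = 0.999). Creg1, a lysosomal glycoprotein, was at 170, 164, 164, 194 and 181 TPM in AF-high and at 144, 118 and 112 TPM in AF-low. Its log2 difference was small beside that of Pvrig, but its scatter on that scale was smaller too (log2 0.49, 0.15 to 0.83, limma unadjusted p = 0.00927). Sec61b, part of the channel that feeds proteins into the endoplasmic reticulum, averaged 56.5 ± 6.86 TPM in AF-high and 35.8 ± 8.29 TPM in AF-low. Cbr1, another carbonyl reductase, averaged 17.7 ± 3.67 TPM in AF-high and 8.65 ± 4.67 TPM in AF-low, and the red cell membrane protein gene Smim1 11.5 ± 4.36 TPM in AF-high and 4.41 ± 0.350 TPM in AF-low. The others were Ndufs5, the chromatin remodeller Chd1l, the carriers Slc7a15 and Slc25a35, Rrp8, Pcmtd2 and Spata45, each averaging under 15 TPM in AF-high apart from Ndufs5.

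**Figure D4:**
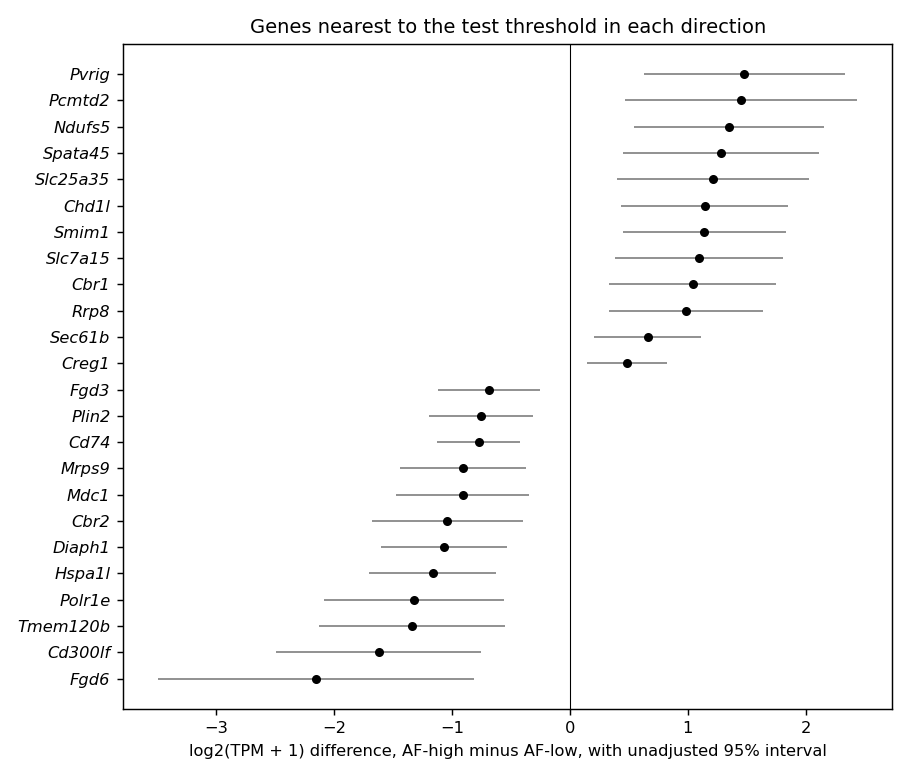
Difference in log2(TPM + 1), AF-high minus AF-low (points), with unadjusted 95% intervals (lines), of the 12 genes with the smallest p in each direction among genes whose gates did not overlap. The higher gate averaged at least 5 TPM, and numbered gene models, marked pseudogenes, mitochondrially encoded and cytosolic ribosomal protein genes were passed over. The intervals leave out 0 because the genes were picked for a small p. Every adjusted p was 0.999.

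For some genes, chosen after their values were seen, libraries of the same gate lay far apart. Fam129b (chromosome 2, 32876114 to 32925254), which encodes the membrane-associated protein niban 2, was among the most variable genes in both gates, at 133, 36.2, 11.7, 6.42 and 113 TPM in AF-high and at 430, 6.21 and 155 TPM in AF-low. Young libraries had 5.96 to 14.6 TPM and averaged 9.17 TPM, PLX5622 libraries 10.7 TPM. AF-high 1 and 5 and AF-low 1 and 3 were thus high, and AF-high 3 and 4 and AF-low 2 near the young level. Nfkb1, a subunit of NF-kappaB, was at 588, 266, 118, 184 and 537 TPM in AF-high and at 650, 152 and 501 TPM in AF-low. The cytokine gene Il1b was at 1049, 411, 324, 297 and 1275 TPM in AF-high and at 651, 322 and 902 TPM in AF-low. Cdkn1a, the cell-cycle inhibitor p21, was at 841, 444, 394, 775 and 850 TPM in AF-high and at 1377, 443 and 953 TPM in AF-low. The same 4 libraries were highest for each of these 3 genes. Across the 8 libraries, the genes most like Fam129b by Pearson's r of log2(TPM + 1) were the calcium pump Atp2b1 (r = 0.983), the kinase Map2k3 (0.975), Swap70 (0.975) and Slc12a4 (0.972), a description over 8 libraries chosen after their values were seen. Nfkb1 had r = 0.944 and Cxcl16 0.945, while Il1b had 0.826 and Cdkn1a 0.778. The labels name no batch, date or animal that marks these 4 libraries, and what sets them apart was not tested.

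**Figure D5:**
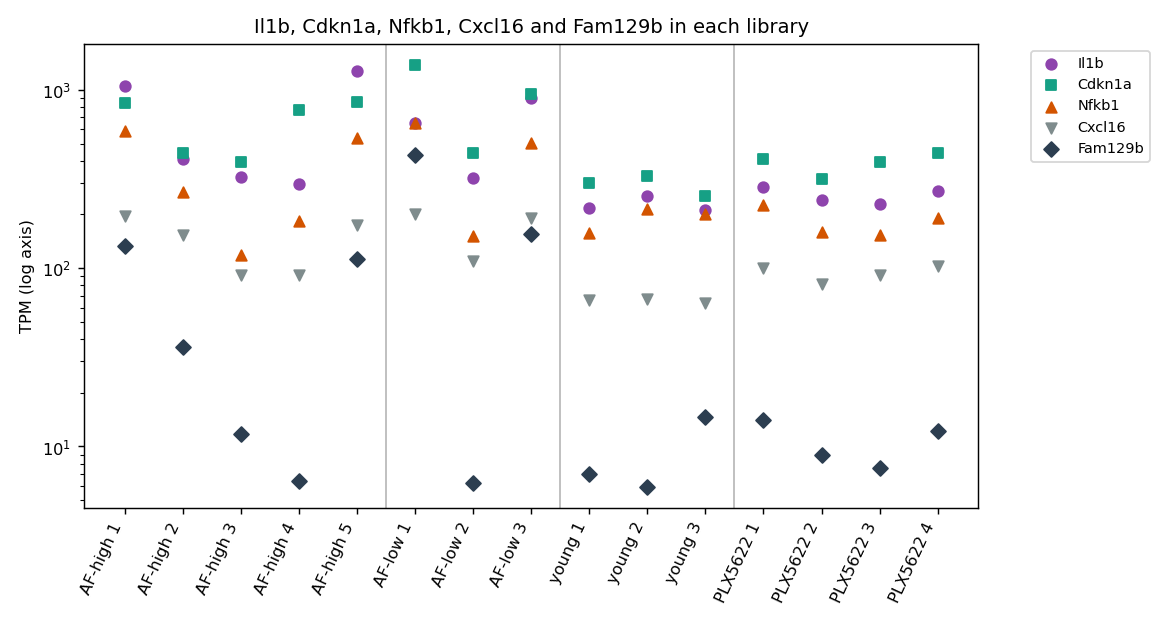
TPM on a log axis of Il1b, Cdkn1a, Nfkb1, Cxcl16 and Fam129b in each of the 15 libraries, grouped by vertical lines. AF-high 1 and 5 and AF-low 1 and 3 stand above the other gated libraries (Fam129b 113 to 430 TPM against 6.21 to 36.2 TPM), and young and PLX5622 libraries lie below those 4 for every gene.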

How the data were processed

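RNA of microglia sorted from mouse brain was extracted, amplified with the Ovation RNA-seq system and sequenced, per the labels' protocols. The values are TPM, as deposited by the authors in 1 table of filtered genes. The submitters' processing notes name FastQC 0.11.8, Salmon 1.0.0, DESeq2 and GRCm38 (mm10); the sources used here give neither the filter nor the annotation. Each column was matched to a library by the short name in its label. Of 13834 genes, none had a value of 0 in any library (0 values), so a gene absent from a library is not in the table, and 19 whose symbols had become dates were left out. TPM keeps no read depth, so no counting interval is given.

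Values were taken as log2(TPM + 1) for the 12823 genes with at least 1 TPM in at least 3 of the 8 libraries; fold changes on this scale understate those of low genes. limma 3.58.1 in R 4.3.3 (lmFit, eBayes with a trend) compared AF-high with AF-low in these libraries, two-sided, with Benjamini-Hochberg adjustment over all genes and a threshold of 0.05. Differences are AF-high minus AF-low with unadjusted 95% intervals. The groups share replicate numbers 1 to 3, but the deviations of same-numbered libraries correlated at 0.06, -0.03 and -0.08, so the numbers were not taken as pairs. Those of differently numbered libraries ran from -0.185 (AF-high 5 with AF-low 2) to 0.172 (AF-high 5 with AF-low 3). Whether the gates share animals under other numbers is not stated, and the test took all libraries as independent. The script was tested on simulated data. Alternatives varied the pseudocount, filter, scaling, weights, block and libraries. Coordinates are from GENCODE M21.

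The named genes are exemplars of each list, 12 genes of small p in each direction and the 6 most variable genes of each gate. The 12 had the smallest p among genes whose gates did not overlap and whose higher mean was at least 5 TPM. The 6 averaged at least 5 TPM in their gate. Numbered gene models, pseudogenes marked in their symbols, mitochondrially encoded and cytosolic ribosomal protein genes were passed over for both. The same kinds, and genes averaging under 5 TPM over the 8 libraries, were passed over for likeness to Fam129b. The comparison, lists and members were chosen with earlier results of these data known. Figures were drawn with matplotlib 3.10.9 in Python 3.11.15. Some members of the lists are not reported here by name.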

Additional observations from a re-analysis of the deposited data

Results flagged for a closer look

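Among 226 values tested for a single AF-high library far from the other 4 (named genes and summed marker levels), 15 (6.64%) stood apart by Dixon's criterion for 5 samples (0.71), where chance would flag about 1 in 20 of values not chosen for their spread. That rate does not apply here as a whole, since some of the genes were chosen as the most variable within AF-high (H2-Aa, Cers4 and Mcm9 among the 15) or for gates that did not overlap (Mrps9). AF-low, with 3 libraries, was not tested.

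AF-high 2 held 9 of the 15. It was the highest for H2-Aa (174 TPM) and H2-Ab1 (23.4 TPM), the T-cell receptor subunit Cd3d (39.7 TPM), the astrocyte glutamate transporter Slc1a2 (6.93 TPM) and the helicase Mcm9 (75.7 TPM), and for the summed markers of astrocytes (153 TPM) and oligodendrocytes (1436 TPM). For oligodendrocytes the mean log2(TPM + 1) of the markers was lowest in AF-high 2, at 3.98 against 4.07 to 4.33 in the other AF-high libraries. AF-high 2 was the lowest for the autophagy gene Map1lc3b (48.8 TPM) and the proteasome subunit Psmd1 (31.8 TPM). AF-high 4 was the highest for the immediate early gene Junb (458 TPM), the B-cell gene Cd79b (9.34 TPM), the synaptic gene Snap25 (2.89 TPM) and the mitochondrial ribosomal gene Mrps9 (35.2 TPM). AF-high 3 was the highest for Gclm, of glutathione synthesis (27.8 TPM), and AF-high 5 for the ceramide synthase Cers4 (78.4 TPM).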

How the results depend on the processing

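limma called 0 genes at an adjusted p under 0.05 in either direction under all 22 alternatives, of which 1, without AF-high 2 and AF-high 3, was added after the values were seen. The smallest adjusted p was 0.434, with all 15 libraries in 1 fit, and 0.812 to 1.00 otherwise. At an unadjusted p under 0.05 the 453 genes became 1063 with all 15 libraries in 1 fit, where the spread of all 4 groups is pooled, 642 (322 higher, 320 lower) with array weights, and 362 to 752 with 1 library left out, the highest without AF-low 2; the cause was not tested. Genes whose gates did not overlap numbered 130 higher and 217 lower; with 1 library left out they were 179 to 584 and 323 to 918, fewer libraries making overlap rarer. With the replicate number as a block over the 3 numbered pairs, 0 genes were called and 172 higher and 322 lower had an unadjusted p under 0.05; as a random block these were 0, 189 and 238. Of the 3 AF-high libraries in those pairs, 1 correlated best with its own number. The mitochondrially encoded median (0.59) ran from 0.27 to 0.74 with 1 library left out and was 0.00 without AF-high 2 and AF-high 3. Of 38 list medians, 12 changed sign without AF-high 2, AF-high 3 and AF-low 1 together, and 2 to 8 with 1 library left out. Small differences are limited by 5 and 3 libraries and by an unknown depth.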

Other observations

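Single libraries carried some of the highest spreads. Prpf40b, a splicing factor gene, was at 24.3, 52.6, 32.6, 46.1 and 50.6 TPM in AF-high and at 44.1, 33.8 and 657 TPM in AF-low, so that AF-low 3 alone stood high. Kif1a, a kinesin of neurons, was at 0.406 to 2.80 TPM in AF-high and at 44.9, 0.131 and 0.345 TPM in AF-low. Agap2 was at 2.17 to 50.8 TPM in AF-high and at 76.4, 3.07 and 2.15 TPM in AF-low. The antibody joining segment Ighj1 lay between 8.28 and 128 TPM in AF-high and reached 588 TPM in AF-low 2, but it ran from 47.1 to 3335 TPM within the young group.

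Genes of growth and energy use had values on both sides, all chosen after they were seen. Of the replication helicase subunits, Mcm3 was at 37.2 to 75.3 TPM in AF-high and 17.4 to 40.5 TPM in AF-low (log2 0.75), Mcm7 at 3.40 to 8.78 TPM in AF-high and 3.29 to 4.08 TPM in AF-low (0.74), and Mcm2 at 2.77 to 5.25 TPM in AF-high and 4.15 to 8.84 TPM in AF-low (-0.67). Gapdh, of glycolysis, was at 778, 935, 620, 731 and 782 TPM in AF-high and 488, 584 and 620 TPM in AF-low (log2 0.44). No member of these lists passed limma's test over all genes.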
